A study of Mus musculus with 6 samples.

Results

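The cyclin-dependent kinase (CDK) inhibitor family was examined in mouse CD4+ T cells grown under Th1 conditions with or without ALX-5407. Its members were taken by gene name and are Cdkn1a, Cdkn1b and Cdkn1c of the CIP/KIP branch and Cdkn2a, Cdkn2b, Cdkn2c and Cdkn2d of the INK4 branch. These are 7 of the 54532 genes counted, and 7 of the 15938 genes that passed the filter on low counts and were tested. The CD4+ T cells were isolated by magnetic negative selection from spleens of male C57BL/6 mice aged 6-8 weeks, activated with antibodies to CD3 and CD28, and cultured with IL-2, IL-12 and an antibody to IL-4. One group (Th1, n = 3) received the vehicle, 0.1% DMSO, and the other (ALX-5407-treated Th1, n = 3) received 500 nM of the GlyT1 (glycine transporter) inhibitor ALX-5407. The labels give 72 h in culture for both groups, as does the text of the study. The passage of its methods on RNA sequencing, however, describes a shorter exposure to ALX-5407 or vehicle. The length of exposure in these libraries is therefore not settled. Libraries held 33432304, 32518060 and 30801753 counts in Th1 cells and 34735568, 36727788 and 34142475 counts in ALX-5407-treated Th1 cells. Replicates are described as biological without mention of separate animals, so p-values measure the spread between these cultures.

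The labelled cell type was compared with marker genes, and their calls stand beside 24.5% of all tested genes higher and 23.2% lower with ALX-5407 (adjusted p under 0.05). Of 12 T cell and CD4 genes, 2 were higher (Cd28 and Cd5), 6 lower and 4 not called. Cd4 was measured at 646 ± 67.4 CPM (counts scaled to a common library size; SD, n = 3) in Th1 cells and at 470 ± 10.8 CPM in ALX-5407-treated Th1 cells. Of 8 Th1 genes, 2 were higher, 3 lower and 3 not called. Tbx21, the defining transcription factor of Th1 cells, was at 81.6 ± 4.06 and 104 ± 4.15 CPM, and Ifng, their main cytokine, at 660 ± 106 and 383 ± 18.1 CPM. The 2 CD8 genes summed to 9.4, 9.25 and 9.59 CPM in Th1 cells and to 6.71, 7.56 and 8.87 CPM with ALX-5407, with Cd8a lower (log2 fold change -0.80, adjusted p = 0.0111) and Cd8b1, the more abundant, not called. Of the 13 myeloid genes, 2 were tested and both were lower with ALX-5407. Their summed level was 91.4, 96.4 and 85.4 CPM in Th1 cells and 37, 30.2 and 31.7 CPM with ALX-5407, Ly6g was the most abundant at 24.1 to 75.3 CPM, and S100a8, S100a9 and Elane had 0 counts in every culture. Of 8 B cell genes, 4 were higher with ALX-5407 and 0 lower, with summed levels of 70.1, 65.4 and 63.6 CPM and then 80.7, 81.3 and 78.5 CPM. Ighm was the most abundant of them, at 53.5 to 64.8 CPM. Markers of natural killer cells summed to 7.43, 7.37 and 8.55 CPM and then to 11.8, 10.1 and 10.5 CPM, with 1 of 3 tested genes higher and Klrc2 the most abundant. Erythroid and megakaryocyte markers summed to 4.12, 4.94 and 5.95 CPM and then to 9.68, 10 and 7.79 CPM, with 2 of 3 tested genes higher and Itga2b the most abundant. Stromal and endothelial markers summed to 84.5, 83.4 and 75.5 CPM and then to 65.6, 67.1 and 63.3 CPM, with 1 of 4 tested genes higher and 1 lower. Pecam1 was the most abundant of them, and Col3a1 and Cdh5 were at 0. Dendritic cell markers summed to 4.05, 4.78 and 4.87 CPM and then to 3.51, 3.73 and 3.05 CPM, with 0 of 2 tested genes called, Zbtb46 the most abundant and Siglech and Cd209a at 0. The part of these marker levels in the results on CDK inhibitors was not tested.

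CDK inhibitors are small proteins that bind cyclin-dependent kinases or their cyclin complexes and slow the passage of a cell through its division cycle. INK4 proteins bind Cdk4 and Cdk6 and keep D-type cyclins from activating them, which leaves the retinoblastoma protein able to hold E2F factors, whereas CIP/KIP proteins bind whole cyclin and kinase complexes, most of all those of Cdk2. In T cells, p27Kip1 is abundant at rest and is removed after antigen receptor and IL-2 signals, and p18Ink4c restrains proliferation after activation.

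Among the CDK inhibitor genes, 1 abundant gene fell, 3 genes of low or moderate level rose, and 3 did not pass the test. Cdkn1b fell with ALX-5407, and Cdkn2c, Cdkn2a and Cdkn1c rose. Higher calls therefore numbered 3 of 7, beside 24.5% of all tested genes, and lower calls 1 of 7, beside 23.2%. Without the first or the third Th1 culture 2 members were higher, as Cdkn1c was not called. Without the third treated culture Cdkn2d was called higher in place of Cdkn1c. When a log2 fold change beyond 1 was required as well, 3 members were higher and 0 lower, beside 3.36% and 6.68% of all tested genes. Cdkn1c, Cdkn2a and Cdkn2b passed the filter on low counts through the treated cultures. Their Th1 counts were 0, 10 and 4 for Cdkn1c, 12, 17 and 5 for Cdkn2a, and 4, 12 and 6 for Cdkn2b. For these genes, being tested and being higher are linked, and Cdkn1c and Cdkn2a are among the 3 higher members. The members were named with results of these data known, so these counts are a description. Overlap between the groups is given for each member below. How many of all tested genes lacked such overlap was not counted, so its absence is not read as particular to a member. A call is an adjusted p-value under 0.05 (edgeR, quasi-likelihood F test, Benjamini-Hochberg over all tested genes). The data are of bulk cultures, in which fewer cells of a type and less RNA per cell cannot be told apart.

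**Figure D1:**
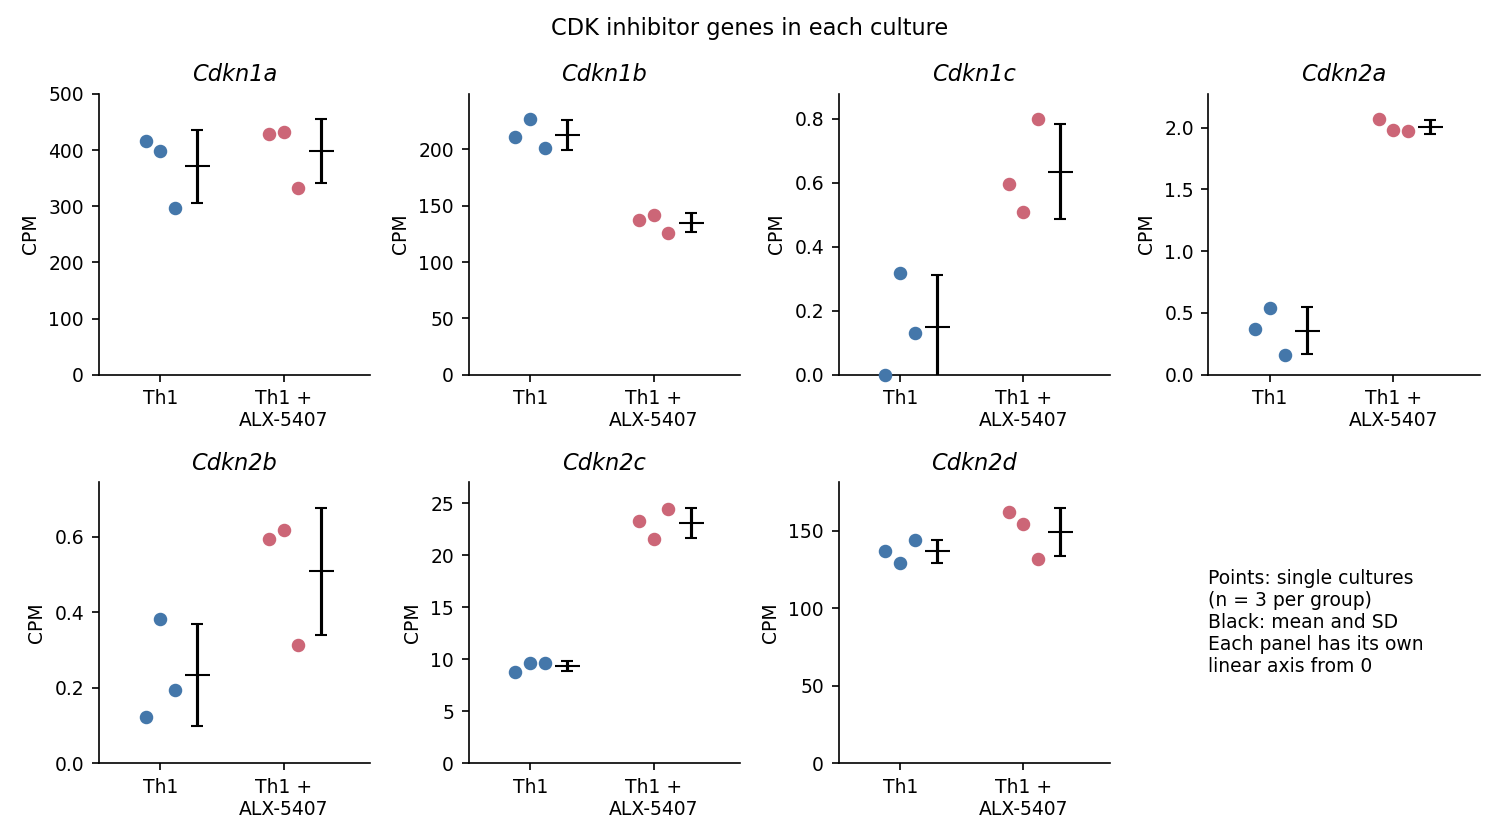
Level of each CDK inhibitor gene in CPM (y axis, linear from 0, one scale per panel) in 3 Th1 and 3 ALX-5407-treated Th1 cultures. Points are cultures and black marks are the mean and SD; the lower SD bar of Cdkn1c in Th1 cells is cut at 0. Cdkn1b was lower in every treated culture, Cdkn1c, Cdkn2a and Cdkn2c were higher in every treated culture, and the groups overlapped for Cdkn1a, Cdkn2b and Cdkn2d. The share of all tested genes without such overlap was not counted.

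To show the regulatory sequence at these genes, promoter windows from RefSeq (GRCm38.p6) are printed for the 3 best measured genes that changed, with both starts of Cdkn2a and the upstream start of Cdkn2c, and for the upstream start of Cdkn1a, whose known regulator p53 is described further on. Each window runs from 250 bases before to 50 after an annotated start, 5' to 3' on the strand of the gene. Capitals mark every match, on either strand, to the E2F motifs TTTCCCGC, TTTCGCGC, TTTGCCGC and TTTGGCGC, the SP1 motif GGGCGG, the E-box CACGTG, the FOXO motif GTAAACA or the p53 half-site.
Cdkn1b (chr6:134920151-134920450, + strand): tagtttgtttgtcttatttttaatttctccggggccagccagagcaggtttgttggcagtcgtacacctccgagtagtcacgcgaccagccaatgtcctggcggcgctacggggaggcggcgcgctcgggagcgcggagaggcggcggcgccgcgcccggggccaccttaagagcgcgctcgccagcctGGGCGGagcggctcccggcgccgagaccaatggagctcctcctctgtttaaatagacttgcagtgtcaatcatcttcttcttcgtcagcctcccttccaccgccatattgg
Cdkn2a upstream start (chr4:89294570-89294869, - strand): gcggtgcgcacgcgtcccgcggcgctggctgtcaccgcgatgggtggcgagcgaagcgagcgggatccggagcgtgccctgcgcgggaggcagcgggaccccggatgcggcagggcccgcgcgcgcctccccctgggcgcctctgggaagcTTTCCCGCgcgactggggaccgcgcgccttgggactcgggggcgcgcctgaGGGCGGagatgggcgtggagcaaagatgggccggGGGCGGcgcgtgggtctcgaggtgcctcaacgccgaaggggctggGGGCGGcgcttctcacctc
Cdkn2a downstream start (chr4:89282143-89282442, - strand): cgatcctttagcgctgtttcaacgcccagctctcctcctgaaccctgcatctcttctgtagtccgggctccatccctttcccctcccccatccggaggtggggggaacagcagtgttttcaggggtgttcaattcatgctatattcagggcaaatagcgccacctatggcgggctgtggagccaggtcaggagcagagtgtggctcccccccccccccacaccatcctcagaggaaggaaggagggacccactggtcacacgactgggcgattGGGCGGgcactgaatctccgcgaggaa
Cdkn2c upstream start (chr4:109666707-109667006, - strand): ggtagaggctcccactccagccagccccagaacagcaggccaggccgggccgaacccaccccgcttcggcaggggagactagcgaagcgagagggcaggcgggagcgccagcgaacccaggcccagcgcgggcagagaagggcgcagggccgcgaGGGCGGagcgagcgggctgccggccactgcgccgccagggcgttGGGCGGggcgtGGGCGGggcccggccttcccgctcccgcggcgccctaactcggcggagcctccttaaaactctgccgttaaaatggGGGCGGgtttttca
Cdkn1a upstream start (chr17:29090729-29091028, + strand): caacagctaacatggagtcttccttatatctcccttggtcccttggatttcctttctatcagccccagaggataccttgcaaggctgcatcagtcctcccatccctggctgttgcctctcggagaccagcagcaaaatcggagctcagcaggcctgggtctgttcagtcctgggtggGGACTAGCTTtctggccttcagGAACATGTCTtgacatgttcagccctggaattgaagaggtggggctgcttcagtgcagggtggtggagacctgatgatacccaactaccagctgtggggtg
RefSeq windows were matched for 6 members, 9 windows in all. Among all 32851 mouse promoter windows, 2.26% held an E2F motif, 35.7% the SP1 motif, 7.15% the E-box, 3.65% the FOXO motif and 8.36% a p53 half-site. The E2F match TTTCCCGC at position 152 of the upstream Cdkn2a window, counted from its 5' end, was the only E2F match in the 9 windows of the family. This window also held 3 SP1 matches and 45 CpG dinucleotides, against a median of 7 over all windows, whereas the downstream Cdkn2a window held 1 SP1 match and 12 CpG. The upstream Cdkn2c window held 4 SP1 matches and 33 CpG, and its downstream window (chr4:109665323-109665622, not printed) 0 SP1 matches, 8 CpG and an E-box at position 285. The Cdkn1b window held 1 SP1 match and 30 CpG. The upstream Cdkn1a window held 2 p53 half-sites, at positions 178 and 200, and 2 CpG. The downstream Cdkn1a window (chr17:29093519-29093818, not printed) held 0 p53 half-sites, 2 SP1 matches and 23 CpG. The Cdkn2d window (not printed) held 5 SP1 matches, 22 CpG and a p53 half-site at position 149. The Cdkn2b window (not printed) held 1 SP1 match and 18 CpG. A match describes the letters of a window and was not tested for binding.

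Of the CIP/KIP genes, Cdkn1b encodes p27Kip1, an inhibitor of Cdk2 complexes that keeps lymphocytes at rest. It lies on the + strand of chromosome 6 (134920401 to 134925513, GRCm38). Counts were 6868, 7110 and 6199 in Th1 cells and 4851, 5286 and 4413 in ALX-5407-treated Th1 cells, or 211, 227 and 201 CPM and then 137, 142 and 126 CPM. Every treated culture was below every untreated one. The mean went from 213 ± 12.8 to 135 ± 8.18 CPM (SD, n = 3), to 0.634 of its level without the inhibitor. The log2 fold change was -0.66 (SE 0.0748, 95% interval -0.82 to -0.50, adjusted p = 2.545e-06). The difference was larger than the spread between cultures of either group.

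Cdkn1a encodes p21Cip1, an inhibitor of Cdk2 complexes and the classical p53 target of this family. It lies on the + strand of chromosome 17 (29090976 to 29100727). Counts were 13575, 12495 and 9133 in Th1 cells and 15143, 16136 and 11625 in ALX-5407-treated Th1 cells. In CPM these were 417, 399 and 297 and then 429, 433 and 332. The groups overlapped, and the lowest value of each group was that of culture 3. The log2 fold change was 0.10 (SE 0.117, 95% interval -0.15 to 0.35, adjusted p = 0.5088), so a missed call here does not show equal levels. Without the third Th1 culture it was -0.05 (adjusted p = 0.68; 0.1429 to 0.8362 over the 6 fits with a culture left out).

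Cdkn1c encodes p57Kip2, an inhibitor that in mice is expressed from the maternal chromosome. It lies on the - strand of chromosome 7 (143458339 to 143461050) and was close to the limit of detection. Counts were 0, 10 and 4 in Th1 cells and 21, 19 and 28 in ALX-5407-treated Th1 cells, or 14 and 68 in sum. Every treated culture was above every untreated one. The level went from 0.15 ± 0.16 to 0.634 ± 0.149 CPM (SD, n = 3), a log2 fold change of 2.07 (SE 0.682, 95% interval 0.62 to 3.51, adjusted p = 0.01961). The call rested on single cultures. The adjusted p was 0.07587 without the first Th1 culture (log2 fold change 1.47), 0.05543 without the third (1.97) and 0.07799 without the third treated culture (1.87). Over the 6 fits with a culture left out it ranged from 0.00712 to 0.07799, and the log2 fold change was 3.23 without the second Th1 culture.

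An antisense gene, Gm44732, shares 625 exon bases with Cdkn1c, and 24.9% of the 50-base words in Cdkn1c transcripts occur in that gene. It had 0 counts in every culture. Whether the counting used strand is not given in the sources used here, so the count of Cdkn1c is uncertain to that extent. AC167363.2, which overlaps 273 exon bases of Cdkn1a on the opposite strand, had 43 to 82 counts in any culture, far below Cdkn1a. Of the 50-base words of Cdkn1a, 8.49% occur in other genes, most of them in AC167363.2. No 50-base word of the other 5 members occurred in another gene.

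Cdkn2a encodes 2 unrelated proteins from 2 starts, p16Ink4a, an inhibitor of Cdk4 and Cdk6, and p19Arf, which binds Mdm2 and thereby stabilises p53. It lies on the - strand of chromosome 4 (89274471 to 89294653), and the upstream and downstream windows printed above belong to the p19Arf and p16Ink4a starts. Counts were 12, 17 and 5 in Th1 cells and 73, 74 and 69 in ALX-5407-treated Th1 cells. The lowest treated culture had more than the 34 counts of all 3 untreated cultures together. The level went from 0.358 ± 0.19 to 2.01 ± 0.0534 CPM (SD, n = 3), a log2 fold change of 2.47 (SE 0.38, 95% interval 1.67 to 3.28, adjusted p = 5.482e-05). Counts per gene do not separate transcripts of p16Ink4a from those of p19Arf. Even so, at 2.01 CPM the gene was a small part of the family.

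Cdkn2b encodes p15Ink4b, a Cdk4 and Cdk6 inhibitor induced by TGF-β in many cells, and lies 11646 bases from Cdkn2a on the same strand (89306299 to 89311039). Counts were 4, 12 and 6 in Th1 cells and 21, 23 and 11 in ALX-5407-treated Th1 cells. The third treated culture, at 0.314 CPM, lay below the second Th1 culture, at 0.383 CPM, so the groups overlapped. The log2 fold change was 1.12 (SE 0.553, 95% interval -0.05 to 2.29, adjusted p = 0.1097). At this depth the interval spans changes from none to one larger than that of Cdkn2c.

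Cdkn2c encodes p18Ink4c, a Cdk4 and Cdk6 inhibitor of dividing and differentiating lymphocytes, and lies on the - strand of chromosome 4 (109660876 to 109667189), far from the Cdkn2a and Cdkn2b pair. Counts were 286, 303 and 295 in Th1 cells and 824, 806 and 859 in ALX-5407-treated Th1 cells, or 8.78, 9.66 and 9.59 CPM and then 23.3, 21.6 and 24.5 CPM. The groups were far apart and each was narrow. The level was 2.48-fold higher, a log2 fold change of 1.31 (SE 0.106, 95% interval 1.08 to 1.53, adjusted p = 8.112e-08). Of the 4 changes called in the family, this one had the smallest p-value.

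Cdkn2d encodes p19Ink4d, an INK4 protein unrelated to p19Arf despite the similar name, and lies on the - strand of chromosome 9 (21288410 to 21291407). Counts were 4462, 4047 and 4447 in Th1 cells and 5733, 5728 and 4632 in ALX-5407-treated Th1 cells. In CPM these were 137, 129 and 144 and then 162, 154 and 132. The first and second treated cultures were above all untreated ones, and the third lay among them. The log2 fold change was 0.13 (SE 0.0823, 95% interval -0.05 to 0.30, adjusted p = 0.2266). Without the third treated culture it was 0.21 and passed the test (adjusted p = 0.04771; up to 0.5996 over the 6 fits with a culture left out).

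**Figure D2:**
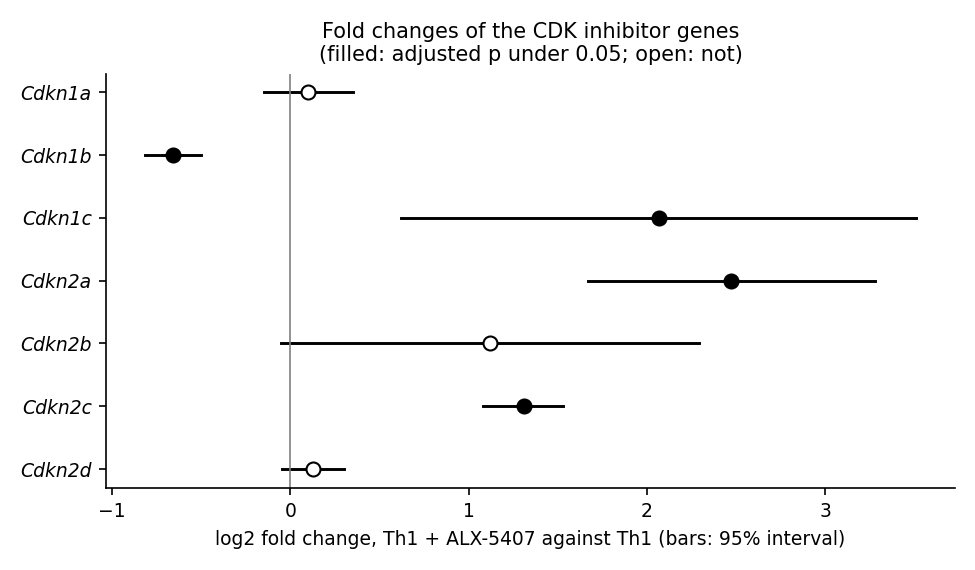
Log2 fold change of each CDK inhibitor gene (x axis, ALX-5407-treated Th1 against Th1) with its 95% interval. Filled points passed an adjusted p-value of 0.05; the interval of Cdkn1c (0.62 to 3.51) is the widest and that of Cdkn1b (-0.82 to -0.50) the narrowest.

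Levels of different genes were compared as CPM per kilobase of exon. On this scale the summed level of the 7 genes was 254, 248 and 223 in Th1 cells and 265, 261 and 216 in ALX-5407-treated Th1 cells. The groups overlapped, with means of 242 ± 16.4 and 247 ± 27 (SD, n = 3). In Th1 cells the order was Cdkn1a (104 ± 18.2), Cdkn2d (87 ± 4.9), Cdkn1b (46.8 ± 2.81), Cdkn2c (3.48 ± 0.181), Cdkn2a (0.305 ± 0.162), Cdkn2b (0.168 ± 0.0965) and Cdkn1c (0.0734 ± 0.0787). With ALX-5407 the order was the same, at 112 ± 16.1, 94.9 ± 9.88, 29.7 ± 1.8, 8.62 ± 0.542, 1.71 ± 0.0455, 0.366 ± 0.121 and 0.311 ± 0.0729. In Th1 cells Cdkn1a and Cdkn2d overlapped between cultures, as did the neighbours among Cdkn2a, Cdkn2b and Cdkn1c. With ALX-5407 Cdkn1a and Cdkn2d again overlapped, as did Cdkn2b and Cdkn1c, while Cdkn2a stood above both.

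The composition of the family differed more than its sum. Cdkn1b held 18.2%, 20% and 19.8% of the length-scaled total in Th1 cells and 11.4%, 11.9% and 12.8% with ALX-5407. Cdkn1a held 42.9% ± 4.79 and 45.1% ± 1.8, and Cdkn2d 36.1% ± 4.35 and 38.4% ± 0.839 (SD, n = 3). Together these abundant genes set the total. Cdkn2c went from 1.44% ± 0.156 to 3.53% ± 0.606 of it and Cdkn2a from 0.124% ± 0.0621 to 0.697% ± 0.0693. The rises in Cdkn2c and Cdkn2a were thus small in absolute level beside the fall of Cdkn1b from 46.8 to 29.7 CPM per kilobase.

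**Figure D3:**
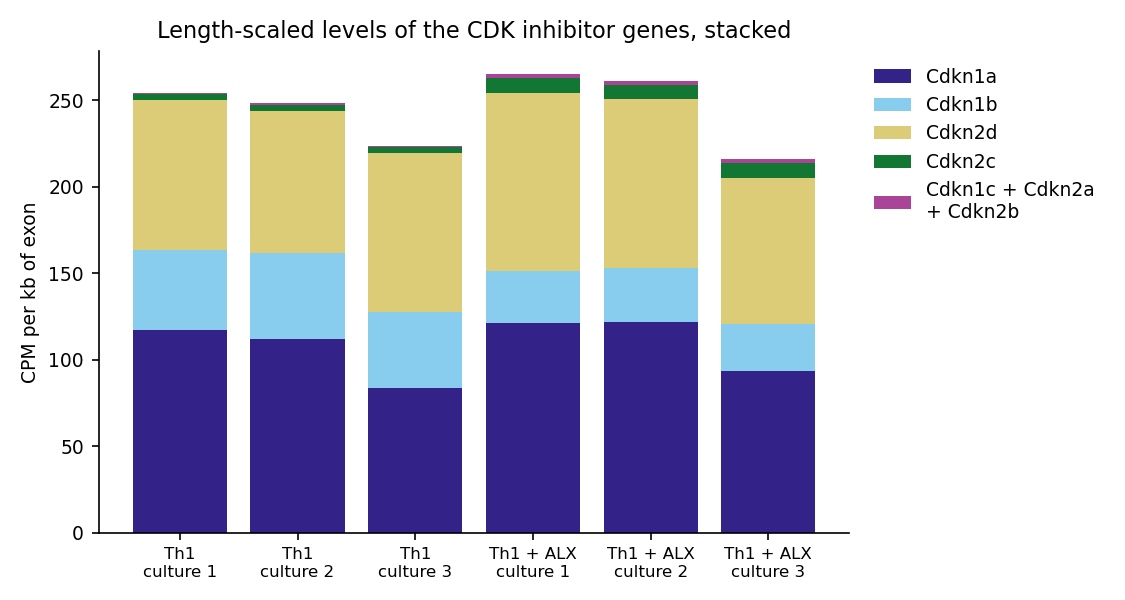
Length-scaled level (y axis, CPM per kilobase of exon) of the CDK inhibitor genes stacked for each of the 6 cultures. The total was 216 to 265 in every culture, with a narrower Cdkn1b layer and a wider Cdkn2c layer in the treated cultures.

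Within each branch the balance of members shifted. The ratio of Cdkn1a to Cdkn1b, p21Cip1 to p27Kip1 messages per length, was 2.53, 2.25 and 1.89 in Th1 cells and 4, 3.91 and 3.37 with ALX-5407, without overlap. Cdkn2d held 95.6% ± 0.57 of the INK4 level in Th1 cells and 89.8% ± 1.22 with ALX-5407 (SD, n = 3). Cdkn2c held 3.83% ± 0.295 and 8.23% ± 1.19 of it. The INK4 sum was 90.7, 86.3 and 95.7 CPM per kilobase and then 114, 108 and 95, and the CIP/KIP sum 164, 162 and 128 and then 151, 153 and 121, both with overlap between the groups. Sums and ratios over the members are descriptions and were not tested.

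The kinases that the inhibitors bind were also higher with ALX-5407. Cdk6, a target of all INK4 proteins, rose from 251 ± 10.9 to 558 ± 22.9 CPM (SD, n = 3; log2 fold change 1.16, adjusted p = 4.029e-09 in edgeR's quasi-likelihood test). Cdk4 rose by a log2 fold change of 0.30 (SE 0.0739, adjusted p = 0.002857), and Cdk2 and Cdk1, the partners of cyclins E, A and B, by 0.51 and 0.53. Per length, Cdk4 and Cdk6 together went from 62.1 ± 1.64 to 94.5 ± 1.81 CPM per kilobase. Set against the INK4 sum, this was a ratio of 0.695, 0.697 and 0.658 in Th1 cells and of 0.846, 0.872 and 0.979 with ALX-5407. The groups did not overlap in this ratio. The ratio of Cdk2 and Cdk1 to the CIP/KIP sum was 0.107, 0.117 and 0.177 and then 0.197, 0.174 and 0.234, in which the lowest treated culture lay just below the highest untreated one. Messages and not proteins were counted, so the ratios say nothing of complexes.

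**Figure D4:**
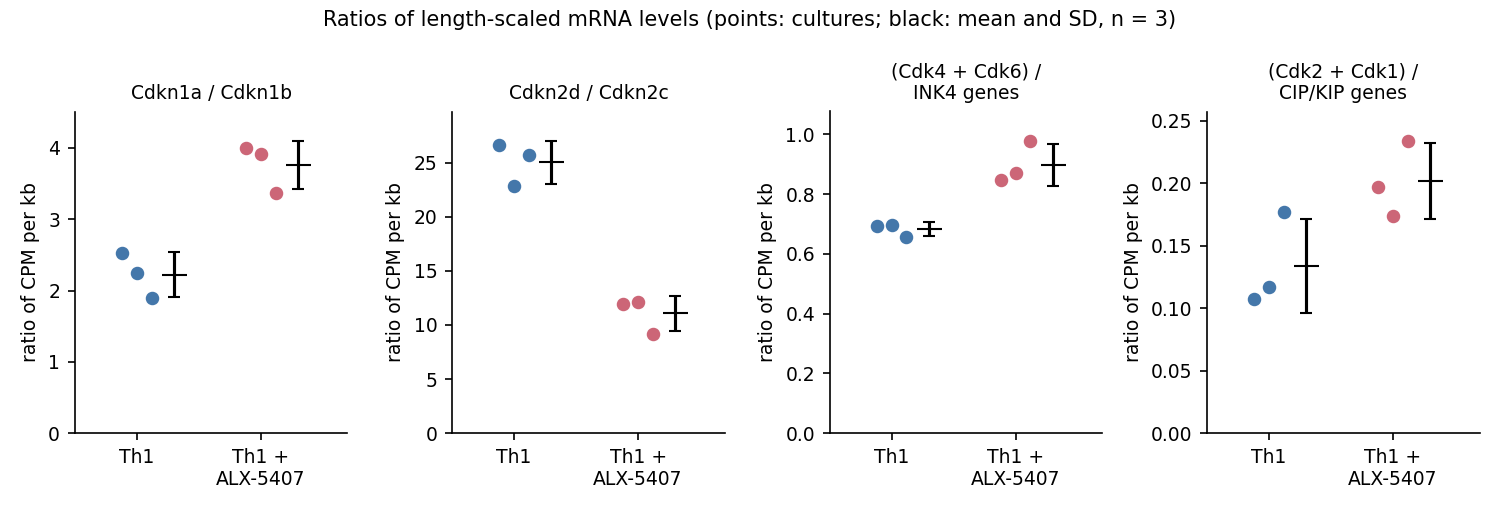
Ratios of length-scaled levels (y axis, linear from 0) in each culture, with the mean and SD of 3 cultures per group in black. Cdkn1a to Cdkn1b and Cdk4 plus Cdk6 to the INK4 genes were higher in every treated culture, Cdkn2d to Cdkn2c was lower, and Cdk2 plus Cdk1 to the CIP/KIP genes overlapped.

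Of the 12 kinases and cyclins that the inhibitors act on, 10 were higher with ALX-5407, 0 lower and 2 not called, with a median log2 fold change of 0.52. Over all tested genes the median was 0.01, with 24.5% higher and 23.2% lower, and these values serve as background for each list that follows. The cyclin Ccne1, which activates Cdk2, rose from 20.2 ± 0.766 to 46.3 ± 4.17 CPM (log2 fold change 1.19, adjusted p = 3.912e-08). The D-type cyclins Ccnd2 and Ccnd3 rose by log2 fold changes of 0.58 and 0.40. Ccnd1 was at 0.425 ± 0.18 and 0.434 ± 0.089 CPM and Ccne2 at 15.6 ± 2.08 and 16 ± 1.98 CPM, neither called. Of 11 genes that add, remove or oppose phosphates on CDKs, 6 were higher and 3 lower. Wee1, the kinase that blocks Cdk1 and Cdk2, rose by a log2 fold change of 1.16 (SE 0.115, adjusted p = 5.684e-07). Its counterpart, the activating phosphatase Cdc25a, rose by 0.60 (adjusted p = 1.485e-05). Mnat1 and Cdk7, subunits of the CDK-activating kinase, fell by 0.65 and 0.27 on the log2 scale, whereas its cyclin subunit Ccnh, named after its values were seen, rose by 0.40 (adjusted p = 0.0004807). Cdc14b fell by 0.61. Lower calls in this list numbered 2 in place of 3 with library totals alone, without the second Th1 culture and without the first treated culture, and Cdk7 had the weakest call of the 3 (adjusted p = 0.02358). Cdkn3, a phosphatase that shares the name of the family but not its structure, was at 9.18 ± 0.6 and 9.56 ± 0.596 CPM (adjusted p = 0.7333).

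Downstream of the INK4 proteins stand the pocket proteins and E2F. Of the 13 genes of this list, 8 were higher, 1 lower and 4 not called, with a median log2 fold change of 0.47. Rb1 rose from 108 ± 3.62 to 131 ± 8.34 CPM (log2 fold change 0.28, adjusted p = 0.004283) and Rbl1 by 0.48 (adjusted p = 3.612e-05), while Rbl2 was at 65.7 ± 5.76 and 73 ± 6.15 CPM (adjusted p = 0.157). The activators E2f1 and E2f3 rose by 0.63 and 0.68 on the log2 scale, and the repressor E2f8 by 0.91. The activator E2f2, named after its values were seen, was at 106 and 112 CPM and was not called (log2 fold change 0.07, adjusted p = 0.4431). E2f5, a repressor that works with Rbl2, fell by 0.58 (adjusted p = 0.0007711).

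Inhibitor proteins are removed by ubiquitin ligases, of which SCF with Skp2 and Cks1b acts on p27Kip1. Of 17 turnover genes tested, 9 were higher, 1 lower and 7 not called, with a median log2 fold change of 0.29. Skp2 went from 8.24 ± 1.44 to 10.7 ± 0.716 CPM (log2 fold change 0.38, SE 0.142, adjusted p = 0.03671). Its call was lost in 8 of 15 alternatives, DESeq2 among them (adjusted p = 0.06228; 0.01341 to 0.1881 over all). Cks1b was level, at 52.4 ± 3.21 and 52.6 ± 1.46 CPM (log2 fold change 0.01, SE 0.0765). Dtl, the receptor of the ligase that removes p21Cip1 during DNA replication, rose by 0.60 (adjusted p = 1.796e-05), Cdc20 by 0.74 and Psme3 by 0.57. Fbxw7, which removes cyclin E, differed by 0.29 on the same scale (adjusted p = 0.02573), a call that was lost in 4 of 15 alternatives (0.007793 to 0.1481 over all). Cul4b fell by 0.26 (adjusted p = 0.02459). The call of Cul4b was lost with library totals alone and without the third Th1 or the first or second treated culture, which left 0 lower calls in the list.

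**Figure D5:**
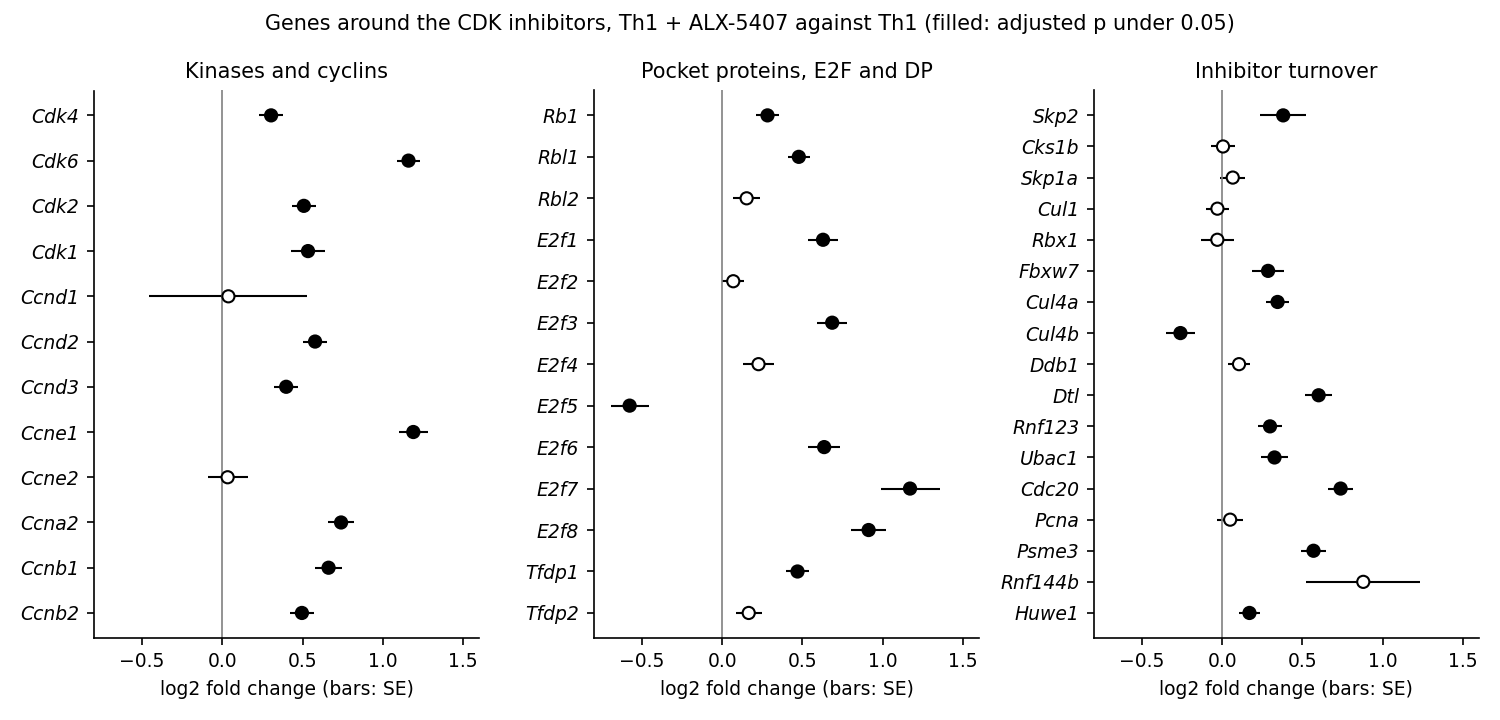
Log2 fold change (x axis, ALX-5407-treated Th1 against Th1; bars are SE) of the kinases and cyclins, the pocket proteins with E2F and DP, and the turnover genes of the CDK inhibitors. Filled points passed an adjusted p-value of 0.05; most lie to the right of 0, and E2f5 and Cul4b are the filled points to its left.

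Transcription of the inhibitor genes has known regulators, of which 30 were listed and 27 tested. 10 were higher, 7 lower and 10 not called, with a median log2 fold change of 0.03. Foxo1 and Foxo3, which activate Cdkn1b in resting lymphocytes, rose from 99 ± 7.81 to 135 ± 3.17 CPM and from 85.9 ± 8.29 to 153 ± 10.3 CPM (log2 fold changes 0.45 and 0.84, adjusted p = 0.0001078 and 5.635e-07). Their direction was opposite to that of Cdkn1b, whereas Foxo4, named after its values were seen, fell by 0.25 on the log2 scale (adjusted p = 0.02282), as Cdkn1b did. Myc, which lowers Cdkn1b and Cdkn2b transcription, rose from 174 ± 5.31 to 259 ± 24.4 CPM (log2 fold change 0.57, adjusted p = 1.624e-05). Cdkn1b fell, whereas Cdkn2b was not called, with a log2 fold change of 1.12. Smad3, a transducer of TGF-β signals, rose by 1.03 and Egr1 by 1.21, whereas Smad4 fell by 0.35 and Klf6, an activator of Cdkn1a, also fell by 0.35. Dmtf1, an activator of the p19Arf start, fell by 0.49 (adjusted p = 7.589e-05) while Cdkn2a rose. The part of any of these regulators in the levels of the inhibitor genes was not tested.

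Trp53, which encodes p53, rose from 66.2 ± 6.66 to 103 ± 0.84 CPM (log2 fold change 0.64, adjusted p = 6.931e-06), and Cdkn1a, with its p53 half-sites in the upstream window, was not called. Mdm2, both a target and the inhibitor of p53, was at 155 ± 7.69 and 143 ± 2.97 CPM (log2 fold change -0.11, SE 0.0693, adjusted p = 0.1932). Of 30 tested p53 targets other than Cdkn1a, 13 were higher, 4 lower and 13 not called, with a median log2 fold change of 0.19. Without the first treated culture 2 were lower. Sesn2, a stress-induced regulator of mTORC1, rose by 1.5 on the log2 scale, Gtse1 by 1.00 and Zmat3 by 0.76. Perp fell by 1.73, from 93.1 ± 5.02 to 28.1 ± 1.39 CPM (adjusted p = 1.61e-10). Trp53cor1, the p53-induced RNA encoded 11797 bases from Cdkn1a, rose from 2.83 ± 0.145 to 4.04 ± 0.539 CPM (log2 fold change 0.51, adjusted p = 0.0355). Cdkn1a was thus among the p53 targets without a call, with a 95% interval of its log2 fold change from -0.15 to 0.35. The activity of p53 was not measured, and its part in these levels was not tested.

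Polycomb complexes silence the Cdkn2a and Cdkn2b locus in many cells. Of 23 genes of Polycomb complexes, DNA methylation and the removal of the Polycomb mark, 9 were higher, 4 lower and 10 not called, with a median log2 fold change of 0.06. Ezh2, the methyltransferase of Polycomb complex PRC2, rose from 160 ± 5.98 to 236 ± 14.7 CPM (log2 fold change 0.57, adjusted p = 8.41e-06), and Bmi1, a repressor of this locus, from 41.6 ± 4.39 to 56.2 ± 1.41 CPM (0.43, adjusted p = 0.0005077). Both rose together with Cdkn2a, and so did Kdm6b, a demethylase that removes the PRC2 mark and was named after its values were seen (0.71, adjusted p = 6.962e-05). Jarid2, a PRC2 subunit, fell by 0.75 (adjusted p = 2.218e-07) and Ezh1 by 0.32, while Cbx2 rose by 1.09 and the maintenance DNA methyltransferase Dnmt1 by 0.83. Marks at the locus were not measured, and the part of these genes in the level of Cdkn2a was not tested.

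Cdkn1c lies in the Kcnq1 imprinted domain, in which the RNA Kcnq1ot1 silences the paternal genes. Of 11 genes of the domain other than Cdkn1c, 7 were tested, with 2 higher, 2 lower and 3 not called. Kcnq1ot1 rose from 10.3 ± 0.328 to 19.5 ± 1.28 CPM (log2 fold change 0.92, adjusted p = 3.278e-06), in the same direction as Cdkn1c. Osbpl5 rose by 0.72, and Cd81 and Nap1l4 fell by 0.70 and 0.29. Allele of origin was not measured by these counts.

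Genes within 100 kb of each member were compared next, beside 24.5% of all tested genes higher and 23.2% lower. Around Cdkn1b, 6 neighbours were tested, of which 2 were lower and 0 higher. Lockd, a noncoding RNA 3579 bases from Cdkn1b, was at 11.8 ± 0.223 and 11 ± 1.71 CPM (log2 fold change -0.10, adjusted p = 0.5628), and Ddx47 fell by 0.38 (adjusted p = 0.0002919). The fall of Cdkn1b was larger than that of any of these neighbours that passed the test. Around Cdkn2c, neither of the 2 tested neighbours was called, and Faf1, 9399 bases away, was at 85.2 ± 6.42 and 91.2 ± 3.94 CPM. Mtap, 93390 bases from Cdkn2a, rose by 0.31 (adjusted p = 0.004643). Around Cdkn1c 3 neighbours were tested, of which Cars rose by 0.25 (adjusted p = 0.006387) and Nap1l4 fell by 0.29. Around Cdkn1a 3 of 8 neighbours were higher and 0 lower, and those 3 were low in Th1 cells, at 0.495 to 2.83 CPM. Around Cdkn2d 0 of 8 were higher and 3 lower, including Kri1, 441 bases away (log2 fold change -0.29, adjusted p = 0.01224).

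Genes of T cell quiescence were set beside Cdkn1b because p27Kip1 is itself abundant in resting T cells. Of 16 such genes, 7 were higher, 6 lower and 3 not called. S1pr1, the receptor that lets resting T cells leave lymphoid tissue, fell from 215 ± 10.7 to 99.1 ± 4.14 CPM (log2 fold change -1.12, adjusted p = 6.748e-09), and Pik3ip1 fell by 0.78 and Il7r by 0.35, as Cdkn1b did. Klf2, which drives S1pr1, rose by 1.39, Slfn2 by 1.15 and Tsc2 by 0.57. The genes of this list thus split in direction.

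For the 4 members called, the genes most alike over the 6 cultures were found by Pearson's r of log2 CPM, among genes with a mean of at least 50 counts. They were Nck2 and Snhg12 for Cdkn1b (r = 0.9987 and 0.9986), Foxm1 and Slc38a1 for Cdkn2c (0.9994 and 0.9992), Uck2 and Nckap5l for Cdkn2a (0.9992 and 0.9988), and Tctn3 and Parl for Cdkn1c (0.9916 and 0.9879). The cultures fall into 2 groups, so such values are dominated by the difference between groups and carry no test. With 1573 genes at r over 0.95 for Cdkn2c, 1171 for Cdkn1b, 772 for Cdkn2a and 53 for Cdkn1c, a close match is common for the well measured members and rarer for Cdkn1c at 0 to 28 counts.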

How the data were processed

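RNA was sequenced from 6 cultures. The authors deposited raw counts of reads per gene, not normalized and not pooled, on GRCm38. The submitters' processing notes name fastp, HISAT2 2.0.5 and featureCounts 1.5.0-p3. For library preparation the methods name ribosomal RNA depletion and the labels name poly-T bead capture. From the counts, edgeR 4.0.16 (R 4.3.3) was run with filterByExpr (minimum count 10), TMM scaling and the quasi-likelihood F test, two-sided, with Benjamini-Hochberg adjustment over 15938 genes. The biological coefficient of variation was 0.0978, and counts of replicate pairs differed beyond sampling noise (chi-square per degree of freedom 5.6 to 22.3). SE was the log2 fold change divided by the square root of F. Lengths were those of the deposited gene models, which for the 7 members equal merged exons of GENCODE M21. The fit was tested on simulated data. Members, lists and markers were chosen with earlier results of these data known. Named genes are all members, a fixed set of partners and regulators, up to 3 called genes per direction and list with the smallest p, neighbours, overlapping genes and the most alike genes. Alternatives were other scalings and filters, DESeq2 1.42.0, limma-voom (limma 3.58.1), a replicate block, protein-coding genes alone, levels without division by length, and each culture left out. An exact permutation test planned for summed levels was not run. The result for 1 marker gene is not reported here. Figures were drawn with matplotlib 3.10.9.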

Additional observations from a re-analysis of the deposited data

How the results depend on the processing

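Cdkn1b, Cdkn2a and Cdkn2c kept direction and an adjusted p under 0.05 in every alternative in which they were tested. With a mean of at least 50 counts required, 1 member was called higher, because Cdkn1c, Cdkn2a and Cdkn2b were not tested there. Requiring a log2 fold change beyond 1 left 536 higher and 1064 lower genes, and 0 lower members, since Cdkn1b (-0.66) does not reach it. The balance of calls over all tested genes depended on the scaling. Higher and lower genes numbered 3910 and 3695 in the main fit. With library totals alone they numbered 4484 and 3246, and with upper-quartile factors 3413 and 4158. Without division by length, Cdkn1a held 50.5% of the summed level in Th1 cells and 56% with ALX-5407. With each culture left out in turn, log2 fold changes ranged from 1.47 to 3.23 for Cdkn1c, from -0.05211 to 0.2222 for Cdkn1a and from 0.06778 to 0.2125 for Cdkn2d. The cause was not tested. Among uncalled partners near 0, Cks1b was -0.008236 with RLE size factors, -0.04792 with upper-quartile factors, -0.02346 under that 50-count filter and -0.04206 with protein-coding genes alone. Under upper-quartile factors and with protein-coding genes alone, Ccnd1 was -0.01433 and -0.007434 and Ccne2 -0.02045 and -0.01409. With a culture left out, Cks1b ranged from -0.04248 to 0.04391, Ccnd1 from -0.2483 to 0.3714, Ccne2 from -0.03907 to 0.1339 and Cdkn3 from -0.0009436 to 0.1158. Equal replicate numbers did not mark shared deviations (r = -0.0084, 0.00355 and 0.0635). A replicate block gave 4071 higher and 3833 lower genes and changed no call of a member (Cdkn1a 0.1061, Cdkn1b -0.6585, Cdkn1c 2.218, Cdkn2a 2.522, Cdkn2b 1.146, Cdkn2c 1.308, Cdkn2d 0.1223). Depth limits Cdkn1c and Cdkn2b, with 28 or fewer counts per culture.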
